A study of Mus musculus with 9 samples.

Results

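A pair of long, gene-poor stretches of the mouse genome is described here, 13 Mb of chromosome 1 (137500001 to 150500000) and 16 Mb of chromosome 13 (74500001 to 90500000) in the build mm10. Their members are all H3R2me2a peaks that start inside these coordinates, 21355 of the 1548240 peaks in 6 peak lists. The chromosome 1 segment held 9644 of them and the chromosome 13 segment 11711, and the 10 Mb on either side of both segments served as flanks with 23827 peaks. The segments were chosen by their measured peak density, as sparse in Prmt6 knockout cells relative to wild type. The difference between these genotypes is therefore described without a test and is no finding.

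The data went against that label for 1 of the 2 knockout libraries. Prmt6KO replicate 2 was as dense in both segments as WT replicate 1, and denser there than in its own flanks. Prmt6KO replicate 1 was at its own autosomal level in both. Both WT libraries were above their own autosomal level, so the segments were dense in WT and in Prmt6KO replicate 2, and level in Prmt6KO replicate 1.

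An antibody against H3R2me2a was used for ChIP-seq on mouse bone marrow cells in culture. The submitters' design note describes the cells as leukemic. The groups were Prmt6KO (cells without Prmt6), Igf2bp2KO (cells without Igf2bp2, a gene for an RNA-binding protein that reads m6A) and WT. Each had 2 H3R2me2a libraries. The 3 inputs, 1 per genotype, were left out because no peak list goes with them. All cells grew with interleukin 3, interleukin 6 and stem cell factor, and the labels give neither age nor strain. They do not say that replicates are separate animals or cultures, so a spread between replicates may be technical. The lists held 761463 and 396471 autosomal peaks in Prmt6KO, 912 and 1124 in Igf2bp2KO, and 160428 and 123625 in WT. The depth visible in a list, its background, was 0.736 and 1.21 fragments in Prmt6KO, 1.45 and 1.33 in Igf2bp2KO, and 1.46 and 1.44 in WT. The lowest summits listed held 2 and 3 fragments in Prmt6KO, 8 and 7 in Igf2bp2KO, and 4 in each WT list. Lists of such unlike length can be compared only after division by each library's own density, and the part that depth has in the results was not tested.

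H3R2me2a is the asymmetric dimethylation of arginine 2 of histone H3. PRMT6 is its main writer, and the mark is known for opposing the trimethylation of lysine 4 on the same histone tail, which marks active promoters. Gene-poor stretches of mammalian chromosomes are mostly packed as heterochromatin and replicate late. The chromosome 1 segment runs from the leukocyte phosphatase gene Ptprc over the complement factor H family and a cluster of RGS genes, which switch off G protein signals, to Prg4. The chromosome 13 segment holds the peptidase gene Erap1, the transcription factor gene Mef2c and the DNA repair gene Xrcc4.

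Of the miRNA genes of the segments in the RefSeq tables of GRCm38.p6, 6 had a peak within 1 kb in at least 1 library. Their mature miRNAs identify these small regulators. They are printed 5′ to 3′ with the seed, bases 2 to 8, in capitals. Mir181a-1 and Mir181b-1, whose products act in lymphocyte development, lie together on chromosome 1 and share a seed. The others lie on chromosome 13.
mmu-miR-181a-5p: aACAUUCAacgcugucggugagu
mmu-miR-181b-5p: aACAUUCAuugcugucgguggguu
mmu-miR-9-5p: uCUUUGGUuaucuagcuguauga
mmu-miR-3961: uGCCCUCAgcucaguugga
mmu-miR-682: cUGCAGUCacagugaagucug
No miRNA gene had a peak within 1 kb in more than 1 library. Prmt6KO replicate 2 had a peak of 4 fragments at chr1:137966632-137966831 that covered the Mir181b-1 hairpin (137966639 to 137966718, plus strand), and the nearest WT peaks lay 3.57 and 1.99 kb from that hairpin. It had a further peak of 4 fragments over the Mir3961 hairpin (chr13:82698067-82698396). Near Mir9-2, a miRNA gene of neural cells, it had 2 peaks of up to 6 fragments, and the predicted gene Gm51268 lies opposite on the minus strand. At Mir682 the single peak was in WT replicate 2, with 5 fragments (chr13:75645320-75645519). The median gap between neighbouring peaks of Prmt6KO replicate 2 was 2.72 kb in the chromosome 1 segment and 2.76 kb in the chromosome 13 segment.

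Few promoters held a peak, in the segments and over all autosomes alike. Promoter sequences of RefSeq (GRCm38.p6), 250 bases before to 50 after a start, were given for 57 of the 68 protein-coding genes as 76 windows. Prmt6KO had a peak on 7 of these windows in replicate 1 (9.21%) and on 4 in replicate 2 (5.26%), Igf2bp2KO on 0 and 0, and WT on 2 (2.63%) and 0. Over the 20084 autosomal windows the shares were 11.8% and 4.11% in Prmt6KO, 0.0747% and 0.0448% in Igf2bp2KO, and 1.85% and 1.07% in WT. Glrx, the gene of the redox enzyme glutaredoxin, was the only gene with a peak on the same window in both libraries of a genotype, with 3 and 5 fragments in Prmt6KO. Mef2c had a peak in each Prmt6KO library, on different windows. The Glrx window is shown with the bases under both peaks in capitals. The others shown are Rgs13, an RGS gene of B cells and mast cells, with a 5-fragment peak in Prmt6KO replicate 2, and F13b, the gene of the clotting factor XIII B chain, with the highest promoter summit, 8 fragments in WT replicate 1. In these 2 the capitals are the bases under that library's peak.
Glrx, chr13:75839635-75839934, plus strand: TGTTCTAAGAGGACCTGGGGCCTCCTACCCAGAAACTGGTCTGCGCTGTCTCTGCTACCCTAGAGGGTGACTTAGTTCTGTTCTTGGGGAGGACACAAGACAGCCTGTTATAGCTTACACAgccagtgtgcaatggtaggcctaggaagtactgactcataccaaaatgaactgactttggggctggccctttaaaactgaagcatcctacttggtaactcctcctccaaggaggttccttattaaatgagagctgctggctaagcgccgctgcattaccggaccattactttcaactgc
Rgs13, chr1:144177323-144177622, minus strand: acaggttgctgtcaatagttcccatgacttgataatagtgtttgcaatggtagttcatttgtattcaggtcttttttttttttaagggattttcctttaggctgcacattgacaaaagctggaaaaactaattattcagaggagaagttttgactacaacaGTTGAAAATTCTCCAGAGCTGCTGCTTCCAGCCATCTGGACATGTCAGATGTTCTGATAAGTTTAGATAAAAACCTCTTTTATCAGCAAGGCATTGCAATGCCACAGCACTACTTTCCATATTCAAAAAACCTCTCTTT
F13b, chr1:139501457-139501756, plus strand: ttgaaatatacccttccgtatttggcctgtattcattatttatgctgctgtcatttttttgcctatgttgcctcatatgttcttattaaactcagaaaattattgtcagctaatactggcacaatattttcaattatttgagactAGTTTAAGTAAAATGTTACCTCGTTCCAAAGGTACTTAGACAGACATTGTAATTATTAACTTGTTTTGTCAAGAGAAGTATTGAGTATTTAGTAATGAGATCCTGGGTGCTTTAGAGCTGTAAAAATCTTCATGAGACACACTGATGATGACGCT
The F13b and Rgs13 windows had 32.7% and 36.7% G and C, and the Glrx window 50%. The median over promoters was 46.3% in the chromosome 1 segment, 58.7% in its flanks and 57.0% over all autosomes. In the chromosome 13 segment the median was 55.7%, close to the 55.3% of its flanks.

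Peak density was set against the flanks and against all autosomes of the same library. In the chromosome 1 segment, Prmt6KO replicate 1 had 4190 peaks or 322.3 per Mb, which was 0.918 times the density of its flanks and 1.02 times that of its autosomes. Prmt6KO replicate 2 had 3044 peaks or 234.2 per Mb, 1.55 times its flanks and 1.42 times its autosomes. WT replicate 1 had 1201 peaks or 92.4 per Mb, 1.53 times its flanks and 1.38 times its autosomes, and WT replicate 2 had 1204 or 92.6 per Mb, 2.2 and 1.80 times. Prmt6KO replicate 1 was thus below both WT libraries, and Prmt6KO replicate 2 was at WT replicate 1 and below WT replicate 2.

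The chromosome 13 segment had the same order. Prmt6KO replicate 1 had 5117 peaks or 319.8 per Mb, 0.991 times its flanks and 1.01 times its autosomes. Prmt6KO replicate 2 had 3692 peaks or 230.8 per Mb, 1.5 times its flanks and 1.40 times its autosomes. WT replicate 1 had 1481 peaks or 92.6 per Mb, 1.48 times its flanks and 1.39 times its autosomes, and WT replicate 2 had 1418 or 88.6 per Mb, 1.87 and 1.72 times. As shares of autosomal peaks, this segment took 0.672% (95% Wilson interval 0.654 to 0.691) and 0.931% (0.902 to 0.962) in Prmt6KO, and 0.923% (0.878 to 0.971) and 1.15% (1.09 to 1.21) in WT. These intervals cover counting error only, and those of Prmt6KO replicate 2 and WT replicate 1 overlapped.

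**Figure D1:**
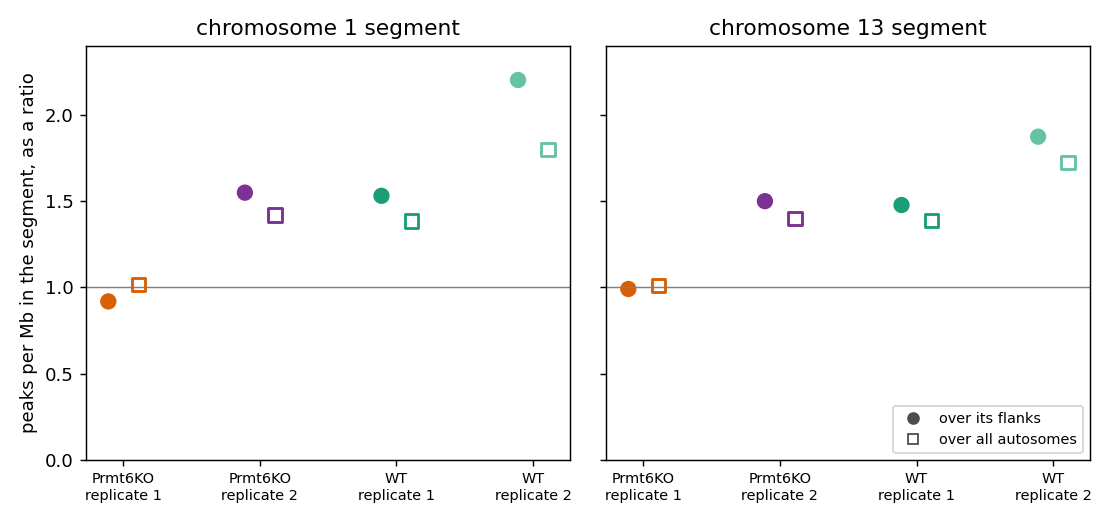
Peaks per Mb in each segment, divided by peaks per Mb of the same library in the flanks (filled circles) or on all autosomes (open squares), for the 2 Prmt6KO and the 2 WT libraries. Prmt6KO replicate 1 lies at 0.918 and 0.991 over its flanks, while Prmt6KO replicate 2 (1.55 and 1.5) lies beside WT replicate 1 (1.53 and 1.48) and below WT replicate 2 (2.2 and 1.87).

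Relative to the flanks, Prmt6KO over WT therefore depended on the libraries set against each other. Prmt6KO replicate 1 was at 0.600 of WT replicate 1 and 0.417 of WT replicate 2 in the chromosome 1 segment, and at 0.670 and 0.529 in the chromosome 13 segment. Prmt6KO replicate 2 was at 1.01 of WT replicate 1 and 0.703 of WT replicate 2 in the chromosome 1 segment, and at 1.02 and 0.80 in the chromosome 13 segment. As group means of log2 density over flanks, the chromosome 1 segment had 0.25 ± 0.53 in Prmt6KO and 0.88 ± 0.37 in WT (SD, n = 2 each), a difference of -0.62. The chromosome 13 segment had 0.29 ± 0.42 in Prmt6KO and 0.73 ± 0.24 in WT (SD, n = 2 each), a difference of -0.45. Without Prmt6KO replicate 1 these differences were -0.25 and -0.15, and without Prmt6KO replicate 2 they were -1.0 and -0.75. The SD between the 2 Prmt6KO libraries was close to the difference between the genotypes in both segments.

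WT and Prmt6KO replicate 2 ranked high when the segments were set among all autosomal windows of the same length. Of 2175 windows of 13 Mb, 0 were denser than the chromosome 1 segment in Prmt6KO replicate 2 and in WT replicate 2, and 44 were denser in WT replicate 1. In Prmt6KO replicate 1, 937 windows were denser. Of 2118 windows of 16 Mb, 0 were denser than the chromosome 13 segment in Prmt6KO replicate 2 and in WT replicate 2, 21 in WT replicate 1 and 1044 in Prmt6KO replicate 1. The segments were picked as sparse in Prmt6KO relative to WT, which favours a high WT rank. Windows also overlap each other, so these ranks are a description. Prmt6KO replicate 1 varied little along the autosomes as a whole: its relative density, a bin's peaks over the library's mean per 1 Mb bin, ran from 0.796 to 1.17 between the 5th and 95th percentile of 2403 bins. The same range was 0.432 to 1.44 in Prmt6KO replicate 2, 0.407 to 1.52 in WT replicate 1 and 0.295 to 1.80 in WT replicate 2.

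In 1 Mb bins, a bin was called sparse when both Prmt6KO libraries were below both WT libraries. Sparse bins made up 5 of 13 in the chromosome 1 segment and 7 of 16 in the chromosome 13 segment, where 17.8% of the 2403 autosomal bins were sparse. In the flanks 2 of 20 and 5 of 20 were sparse. The opposite call, both Prmt6KO libraries above both WT libraries, covered 0 of the 29 segment bins and 30.3% of autosomal bins. Since the Prmt6KO and WT difference chose the segments, nothing is read from these counts. Prmt6KO replicate 1 alone was below both WT libraries in 29 of 29 segment bins, where 39.1% of autosomal bins were. Prmt6KO replicate 2 alone was below both in 12, where 22.6% of autosomal bins were. It lay between the WT libraries in 15 and above both in 2.

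The bins of Prmt6KO replicate 2 and of both WT libraries were all above their library's autosomal mean inside the segments, 29 of 29 in each. Outside segments and flanks 1210, 1159 and 1063 of 2334 bins were, for Prmt6KO replicate 2, WT replicate 1 and WT replicate 2. In the flanks 8, 6 and 6 of 20 were on chromosome 1, and 8, 8 and 7 of 20 on chromosome 13. The segments were picked by density, so these counts are a description. In the chromosome 1 segment relative density ran from 0.811 to 1.14 with a median of 1.01 in Prmt6KO replicate 1, and from 1.21 to 1.59 with a median of 1.41 in Prmt6KO replicate 2. WT replicate 1 ran from 1.14 to 1.76 with a median of 1.33, and WT replicate 2 from 1.33 to 2.2 with a median of 1.78. The lowest Prmt6KO replicate 1 bin of the chromosome 1 segment, 146.5 to 147.5 Mb, covers most of Brinp3 and held 256 peaks. The highest WT replicate 2 bin, 82.5 to 83.5 Mb of chromosome 13, is gene-free sequence before Mef2c. Relative density there was 0.995 in Prmt6KO replicate 1, 1.48 in Prmt6KO replicate 2, 1.67 in WT replicate 1 and 2.5 in WT replicate 2.

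**Figure D2:**
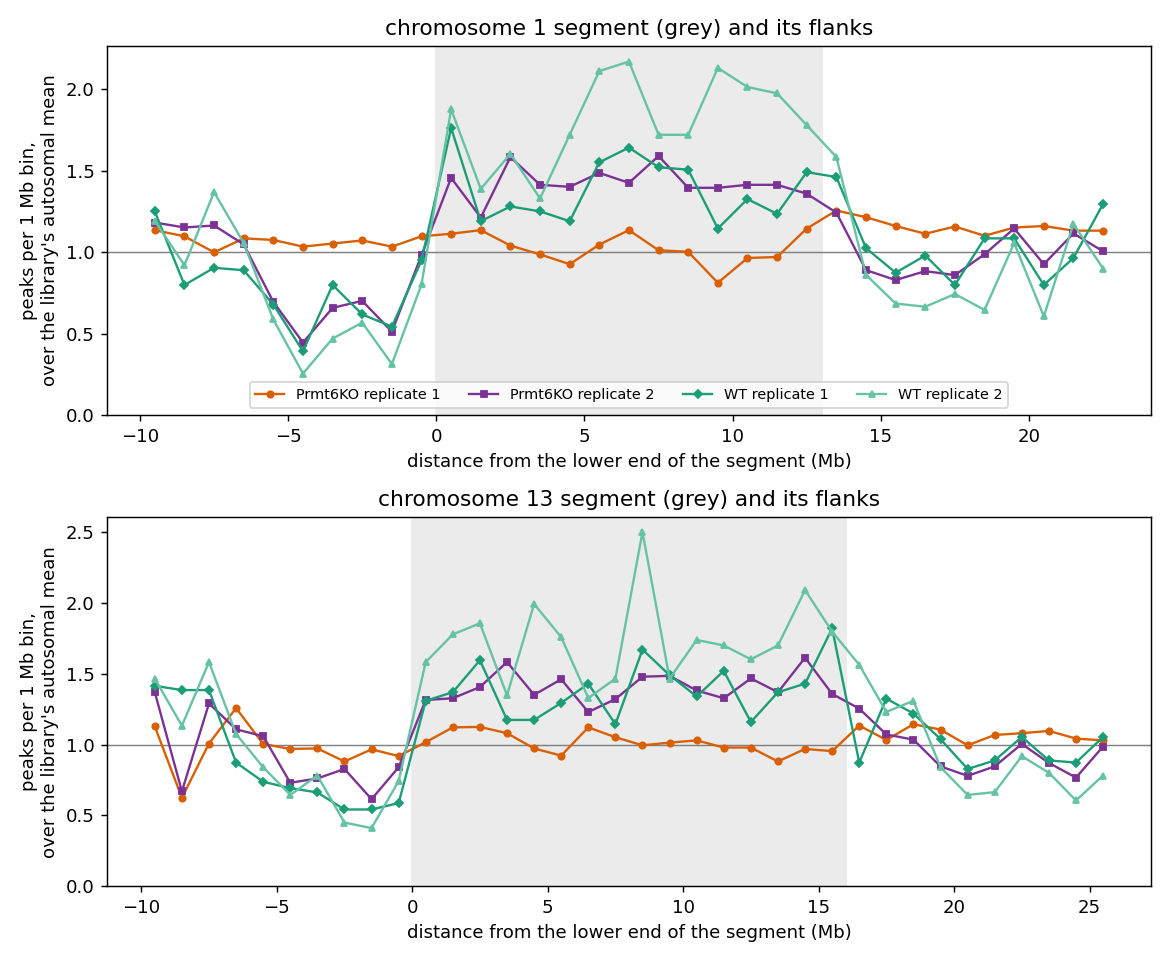
Relative peak density in 1 Mb bins across each segment (grey) and 10 Mb on either side, by distance from the lower end of the segment, for 4 libraries. Prmt6KO replicate 1 stays between 0.811 and 1.14 inside both segments, and the other 3 libraries stay above 1 there.

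The lower segment edges were seen in the same 3 libraries. At the lower edge of the chromosome 1 segment, the first 1 Mb inside held 351 peaks and the last 1 Mb outside 346 in Prmt6KO replicate 1. In Prmt6KO replicate 2 these were 239 and 161, in WT replicate 1 they were 117 and 63, and in WT replicate 2 they were 96 and 41. At its upper edge the step was small, with 361 and 396 peaks in Prmt6KO replicate 1, 223 and 204 in Prmt6KO replicate 2, 99 and 97 in WT replicate 1, and 91 and 81 in WT replicate 2. At the lower edge of the chromosome 13 segment the counts inside and outside were 321 and 290 in Prmt6KO replicate 1, 216 and 138 in Prmt6KO replicate 2, 87 and 39 in WT replicate 1, and 81 and 38 in WT replicate 2. At its upper edge WT replicate 1 had 121 inside and 58 outside, and the inside to outside ratio of the other libraries was between 0.841 and 1.15. The coordinates thus mark clear steps at the lower edges. At the upper edge of chromosome 13 the drop of WT replicate 1 did not last, as its following bins held 88 and 81 peaks.

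Both segments are gene-poor. The chromosome 1 segment has 33 protein-coding genes or 2.54 per Mb, against 12.0 and 6.80 per Mb in its flanks. The chromosome 13 segment has 35 or 2.19 per Mb, against 9.40 and 8.4. The autosomes have 8.6 per Mb. Protein-coding genes cover 18.8% of the bases of the chromosome 1 segment and 57.6% and 59.3% in its flanks. In the chromosome 13 segment they cover 26.6%, against 25.2% and 50.5%. Fewer genes lay in 164 of the 2175 windows of 13 Mb and in 88 of the 2118 windows of 16 Mb, so the segments are among the poorest stretches of their size without being the poorest.

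Over all autosomes, bins with more genes were less dense in 3 libraries and not in Prmt6KO replicate 1. Genes were counted in the bin that holds their lower coordinate. Over 2403 bins, Spearman's rho between relative density and this number was 0.21 in Prmt6KO replicate 1, -0.49 in Prmt6KO replicate 2, -0.35 in WT replicate 1 and -0.41 in WT replicate 2. Between libraries, rho was 0.78 and 0.82 for Prmt6KO replicate 2 with the WT libraries, 0.87 between the WT libraries, and 0.17 between the Prmt6KO libraries. Within the 29 segment bins the pattern differed, with a rho of 0.74 between density and gene number in Prmt6KO replicate 1, -0.24 in Prmt6KO replicate 2, 0.22 in WT replicate 1 and -0.24 in WT replicate 2. Neighbouring bins and base composition are shared across these points, so the values are descriptive.

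The segment bins, which were picked by density, are set beside other bins of like gene number as a description. Among bins in which no gene starts, some of which hold part of a gene, the median relative density was 0.970 in the 11 segment bins and 0.929 in 273 other bins in Prmt6KO replicate 1, and 1.41 and 1.29 in Prmt6KO replicate 2. In WT replicate 1 it was 1.25 and 1.19, and in WT replicate 2 it was 1.97 and 1.35. Among bins in which 6 to 10 genes start the gap was wider. In Prmt6KO replicate 1 the medians were 1.13 in 5 segment bins and 1.05 in 511 other bins. They were 1.36 and 0.938 in Prmt6KO replicate 2, 1.37 and 0.949 in WT replicate 1, and 1.78 and 0.840 in WT replicate 2. Outside the segments the median of Prmt6KO replicate 2 and of both WT libraries was below 1 at this gene number, and inside them it was above 1.

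**Figure D3:**
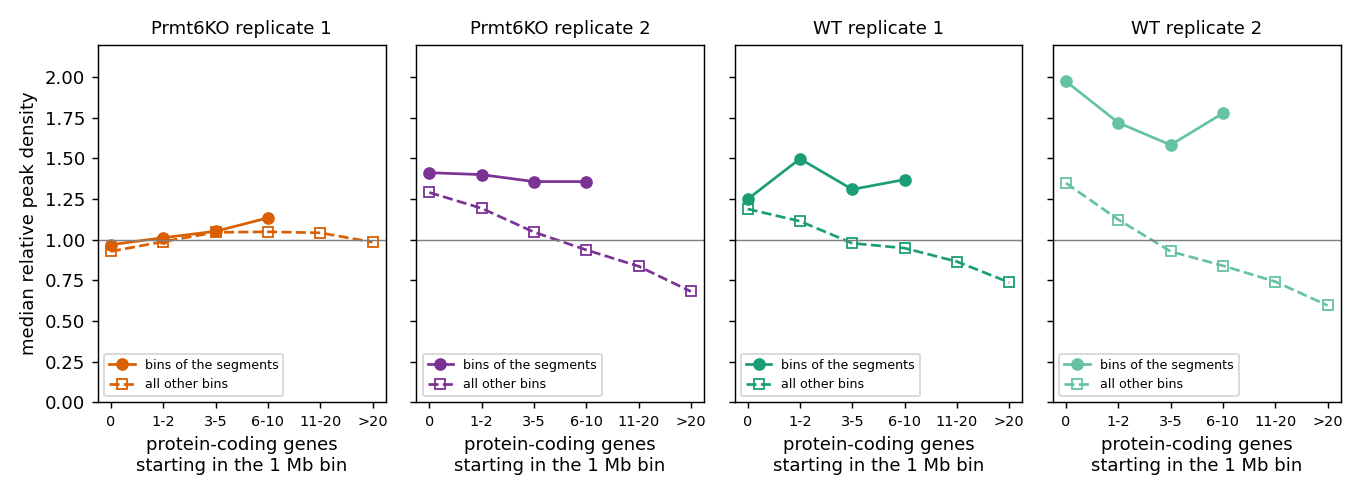
Median relative peak density of 1 Mb bins by the number of protein-coding genes whose lower coordinate lies in the bin, for bins of both segments (filled circles, solid line) and all other autosomal bins (open squares, dashed line), 1 panel per library. In Prmt6KO replicate 2 and both WT libraries the other bins fall with gene number and the segment bins stay above them, while Prmt6KO replicate 1 stays near 1.

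Long gene-free stretches had densities close to those of the rest. In the chromosome 1 segment, 3 stretches of at least 1 Mb without a protein-coding gene, 7.64 Mb in all, lie between Kcnt2 and Cdc73, between Rgs18 and Brinp3 and between Brinp3 and Pla2g4a. They held 0.984 times the autosomal density in Prmt6KO replicate 1 (1.06 in the rest of the segment) and 1.40 times in Prmt6KO replicate 2 (1.44 in the rest). The values were 1.35 in WT replicate 1 (1.43 in the rest) and 1.79 in WT replicate 2 (1.82 in the rest). On chromosome 13, 7.17 Mb of such stretches held 0.967 times the autosomal density in Prmt6KO replicate 1 (1.04 in the rest) and 1.43 times in Prmt6KO replicate 2 (1.38 in the rest). WT replicate 1 had 1.29 (1.46 in the rest) and WT replicate 2 had 1.79 (1.67 in the rest). By summit position, 81.2% and 79.5% of the segment's peaks were intergenic in Prmt6KO, and 80.3% and 79.2% in WT, where 80.8% of its bases are. On chromosome 13 they were 71.3% and 72.8% in Prmt6KO, and 70.2% and 71.8% in WT, where 73.0% of bases are intergenic. The shares of peaks outside genes were close to the share of bases outside genes.

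The 6 longest genes of each segment carried enough peaks to be read singly. Brinp3, a gene of neural cells of 406.8 kb on chromosome 1, held 93 and 105 peaks in Prmt6KO, and 34 and 54 in WT. Against the number that the flanks' density gives for its length, these are 0.651 and 1.71 times in Prmt6KO, and 1.38 and 3.16 times in WT. Kcnt2, the gene of a sodium-activated potassium channel, held 101 and 100 peaks in Prmt6KO, and 33 and 30 in WT, or 0.782 and 1.80 times, and 1.48 and 1.94 times. In both genes Prmt6KO replicate 1 was below its flanks and the other libraries above them.

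On chromosome 13, Xrcc4, whose product joins broken DNA ends, held 74 and 62 peaks in Prmt6KO, and 36 and 37 in WT. These are 0.952 and 1.67 times the flank expectation in Prmt6KO, and 2.39 and 3.25 times in WT. Edil3, the gene of an integrin-binding matrix protein, held 152 and 126 peaks in Prmt6KO, and 53 and 51 in WT. Adgrv1, an adhesion receptor gene of hair cells and photoreceptors, had the narrowest range over the 4 libraries, with 1.13 and 1.21 times the flank expectation in Prmt6KO, and 1.39 and 1.53 times in WT. Across the 12 long genes Prmt6KO replicate 1 was the lowest of the 4 libraries in 12 and WT replicate 2 the highest in 10. Over all 68 genes of the segments these counts were 42 and 40. These genes are parts of segments picked by density, so the counts are a description. Ranges below are for the long genes. Prmt6KO replicate 1 ran from 0.651 to 1.13, Prmt6KO replicate 2 from 1.21 to 1.80, WT replicate 1 from 0.981 to 2.39 and WT replicate 2 from 1.53 to 3.25.

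**Figure D4:**
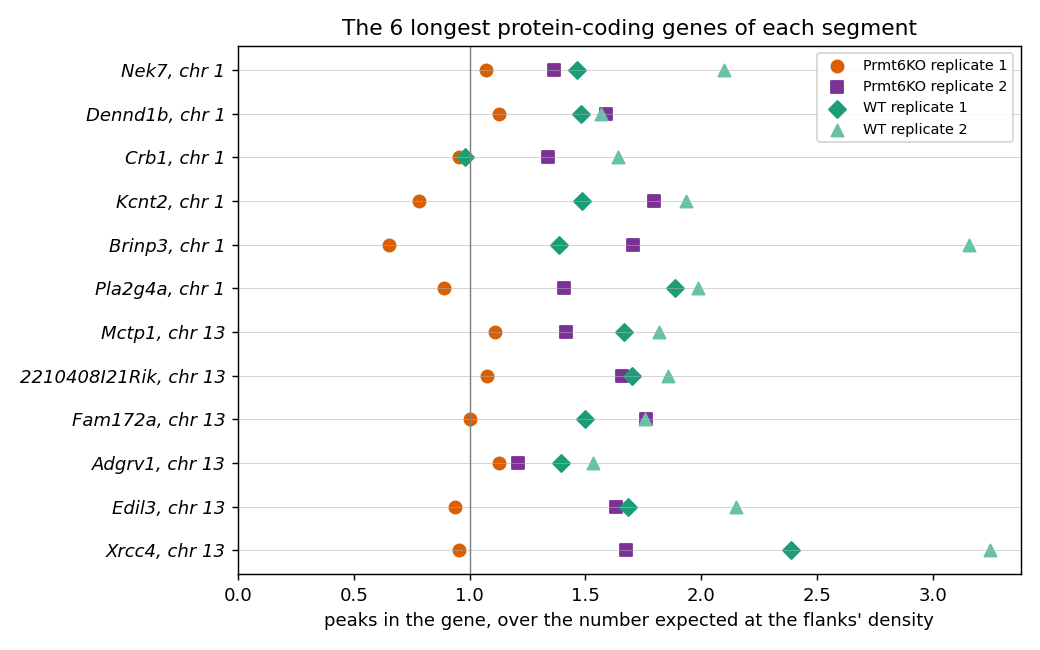
Peaks in each of the 6 longest protein-coding genes per segment, divided by the number that the same library's flank density gives for the gene's length (x axis), for the 2 Prmt6KO and 2 WT libraries. Prmt6KO replicate 1 lies lowest in all 12 genes, and Prmt6KO replicate 2 lies between 1.21 and 1.80.

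Blood and immune genes were near the density of their segments in Prmt6KO, and above it in WT, with no test made. Of 17 such genes, 16 lie in the segments with 1148 kb in all. They held 376 and 281 peaks in Prmt6KO, and 140 and 129 in WT, or 1.03 and 1.48 times the autosomal expectation in Prmt6KO, and 1.83 and 2.18 times in WT. The segments' own density gives 368.5 and 266.7 peaks for their length in Prmt6KO, and 106.2 and 103.8 in WT. Much of the WT excess lay in Xrcc4, with 36 and 37 peaks where 22.3 and 21.3 are given, and in Cdc73, where 9.20 and 9.23 are given. It was not shared by all members. Ptprc, which encodes the leukocyte phosphatase CD45, held 37 and 32 peaks in Prmt6KO, and 15 and 13 in WT. Cdc73, a subunit of the PAF1 elongation complex, held 34 and 34 in Prmt6KO, and 19 and 15 in WT. Mef2c, a transcription factor gene of lymphoid, myeloid and muscle cells, held 56 and 37 in Prmt6KO, and 23 and 13 in WT. Nek7, a kinase gene of the NLRP3 inflammasome, held 51 and 28 in Prmt6KO, and 12 and 12 in WT. For Nek7 the segment's density gives 12.6 and 12.6 in WT.

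The other gene lists were read on the same autosomal scale. The neural, eye and matrix list (12 of 16 genes, 2918 kb) had 1.01 and 1.38 times the autosomal expectation in Prmt6KO, and 1.39 and 1.80 times in WT. The complement factor H family with F13b (5 of 7 genes), whose factor H restrains complement, had 1.04 and 1.57 times in Prmt6KO, and 1.45 and 1.73 times in WT. The RGS cluster (5 of 5 genes), which shares Rgs1, Rgs2 and Rgs18 with the blood list, had 1.13 and 1.82 times in Prmt6KO, and 1.25 and 2.11 times in WT. The list of Erap1, the calpain inhibitor gene Cast and the prohormone convertase gene Pcsk1 (3 of 4 genes) had 1.10 and 1.35 times in Prmt6KO, and 1.25 and 2.16 times in WT. In each list Prmt6KO replicate 1 was the lowest of the 4 libraries and WT replicate 2 the highest.

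At gene ends, the window of 1 kb either side of a gene's start and end, a gene was called when both libraries of a genotype had a peak. Of the 68 protein-coding genes, 30 were called in Prmt6KO (28.6% of autosomal genes were), 0 in Igf2bp2KO (0.218% were) and 11 in WT (3.7% were). The 11 were Ptprc, Atp6v1g3, Lhx9, Zbtb41, Gm4788, B3galt2 and Tpr on chromosome 1, and Gm46430, Rhobtb3, Fam81b and Mctp1 on chromosome 13. Tpr encodes a protein of the nuclear pore basket, Lhx9 a homeodomain factor and Atp6v1g3 a proton pump subunit. Genes called in WT with no peak in either Prmt6KO library numbered 0, where 0.445% of autosomal genes met that rule. The opposite case, called in Prmt6KO with no peak in WT, numbered 8, where 18.2% of autosomal genes did. Against WT, 11 genes were called in WT with no Igf2bp2KO peak, where 3.44% of autosomal genes met that rule. In Igf2bp2KO 0 were gained, where 0% were. Of the 764 autosomal genes called in WT, 710 had no Igf2bp2KO peak, so the count of 11 follows the WT calls and nothing is read from it. The 8 gained in Prmt6KO lie on chromosome 13: Cast, 2210408I21Rik, Fam172a, Adgrv1, Polr3g, Ccnh, Vcan and Xrcc4.

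Per library, 72.1% of the 68 genes had a gene-end peak in Prmt6KO replicate 1, where 72.2% of all autosomal genes did, and 63.2% in Prmt6KO replicate 2, where 38.0% did. In WT replicate 1 the share was 39.7% (19.1% of all) and in WT replicate 2 it was 35.3% (12.9% of all). Counting only peaks that passed q 0.05, 0 of the 68 genes were called in Prmt6KO and 0 in WT, where 0.290% and 0.227% of autosomal genes were. Prmt6KO replicate 1 was thus at its autosomal share, and the other 3 libraries were above theirs.

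The peaks themselves were low. The fold enrichment that the authors gave each peak is its summit plus 1 over its list's background plus 1. Igf2bp2KO summits and background had been scaled down before that, so their fold values are not on the scale of the other lists. In the chromosome 1 segment the highest summit held 9 and 11 fragments in Prmt6KO, and 11 and 10 in WT. In the chromosome 13 segment it held 9 and 12 fragments in Prmt6KO, and 14 and 15 in WT. The q threshold of 0.05 was passed by 0.382% and 1.12% of the chromosome 1 segment's peaks in Prmt6KO, and by 2.58% and 1.33% in WT. On the autosomes the shares were 0.493% and 1.32% in Prmt6KO, and 3.02% and 2.01% in WT.

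The excess over the flanks changed with summit height. In the chromosome 1 segment the excess of Prmt6KO replicate 2 was 1.55 for all peaks, 1.72 for summits of at least 5 fragments and 2.54 for at least 7, the last from 167 segment and 101 flank peaks, and 1.87 for at least 8. In Prmt6KO replicate 1 it was 0.918 for all peaks and 1.17 for at least 5 fragments, from 369 segment and 484 flank peaks, and 0.849 for at least 7, from 16 and 29. WT replicate 1 had 1.53 for all peaks and for at least 5 fragments, and WT replicate 2 had 2.2 and 2.25. For at least 7 fragments WT had 1.63 and 2.29, and for at least 8 it had 1.66 and 2.80, the last from 71 and 39 peaks. In the chromosome 13 segment, Prmt6KO replicate 1 stayed at 1.01 for at least 5 fragments. Prmt6KO replicate 2 had 1.56 there, WT replicate 1 had 1.47 and WT replicate 2 had 1.85. For at least 7 fragments the values were 0.871 and 1.93 in Prmt6KO, and 1.59 and 2.45 in WT. At 5 fragments Prmt6KO replicate 1 was thus near its flanks on chromosome 13 and above them on chromosome 1, and it was the lowest library in both.

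**Figure D5:**
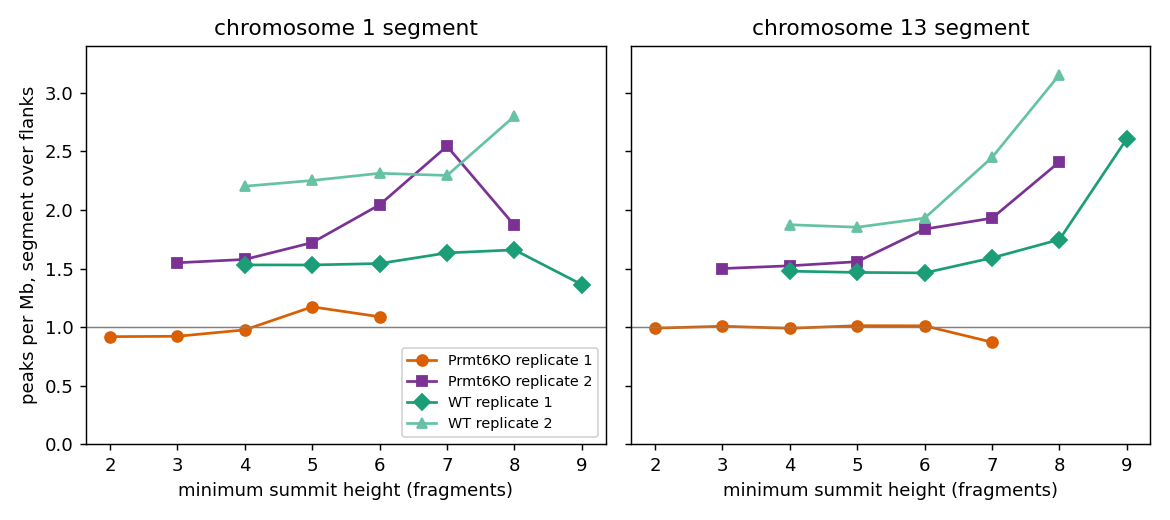
Peaks per Mb in the segment over its flanks (y axis) when only summits of at least the given number of fragments are counted (x axis), for the 2 Prmt6KO and 2 WT libraries, wherever at least 20 peaks remain on each side. Prmt6KO replicate 2 moves from 1.55 to 2.54 at 7 fragments in the chromosome 1 segment, and Prmt6KO replicate 1 moves from 0.918 to 1.17 at 5. WT replicate 2 moves there from 2.2 to 2.80 at 8.

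Few peaks had the same position in both libraries of a genotype. In the chromosome 1 segment, 690 of 4190 Prmt6KO replicate 1 peaks (16.5%) overlapped a replicate 2 peak by at least 1 bp, against 9.45% in the flanks, and 685 of 3044 replicate 2 peaks (22.5%) overlapped a replicate 1 peak, against 21.9%. In WT, 72 of 1201 replicate 1 peaks (6.0%) overlapped a replicate 2 peak, against 4.31% in the flanks. The partner lists were also denser in the segment than in the flanks, and the part of that in these shares was not tested. In the chromosome 13 segment, 786 Prmt6KO replicate 1 peaks (15.4%) and 94 WT replicate 1 peaks (6.35%) overlapped their partner, against 10.7% and 5.35% in the flanks. Of the same WT replicate 1 peaks, 19.1% overlapped Prmt6KO replicate 1 and 16.3% Prmt6KO replicate 2, more than overlapped WT replicate 2. The Prmt6KO lists covered 8.91% and 6.43% of this segment's bases, and WT replicate 2 covered 2.43%.

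Replicated peaks are those that overlapped between the 2 libraries of a genotype. In Prmt6KO, 0 of 690 on chromosome 1 and 0 of 786 on chromosome 13 passed q 0.05 in both lists. In WT, 1 of 72 and 4 of 94 did. Single lists passed it on the autosomes at 0.493% and 1.32% in Prmt6KO, and at 3.02% and 2.01% in WT. The share of replicated autosomal peaks is not given here, so nothing is read from these counts. The highest WT peak by its lower fold enrichment lay at chr13:87899119-87900096, 921.4 kb from Edil3, with fold enrichments of 2.88 and 4.53 in Prmt6KO, and 5.28 and 5.33 in WT. The next lay inside 2210408I21Rik at chr13:77438836-77439135, with 2.88 and 5.89 in Prmt6KO, 4.16 in Igf2bp2KO replicate 2, and 6.09 and 4.92 in WT. It was listed in 5 of the 6 lists. On chromosome 1 the highest lay at chr1:149508658-149508965, 320.7 kb from Pla2g4a, the gene of a phospholipase that releases arachidonic acid, with 3.46 and 2.72 in Prmt6KO, and 4.47 and 4.10 in WT. These 3 WT peaks were listed in both Prmt6KO libraries too.

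The third WT peak of chromosome 13, 244.4 kb from Pcsk1, had 4.06 and 4.10 in WT and, of the Prmt6KO lists, was listed in replicate 2 alone, with 1.81. Of the next 2 on chromosome 1, the peak 25.7 kb from Uchl5 was listed in Prmt6KO replicate 1 and the peak 59.5 kb from Rgs18 in neither Prmt6KO library. The highest replicated Prmt6KO peaks were not listed in WT, and nor were most Prmt6KO peaks of the segments. Of all Prmt6KO replicate 1 peaks of the chromosome 1 segment, 6.11% overlapped WT replicate 1 and 4.99% WT replicate 2. In the chromosome 13 segment these shares were 5.53% and 4.79%. On chromosome 1 the highest replicated Prmt6KO peaks lay inside Dennd1b, with 4.03 and 3.62, and nearest to Ptprc and Cdc73. On chromosome 13 they lay nearest to Nr2f1, Mef2c and Tmem161b. Their summits held 5 or 6 fragments in replicate 1 and 7 or 8 in replicate 2.

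Igf2bp2KO lists were nearly empty here, and the median autosomal window of the same length was low in them too. The chromosome 1 segment held 0 and 5 peaks in Igf2bp2KO, where the autosomal density of those lists gives 4.93 and 6.08, and its flanks held 0 and 2. A count of 0 allows a share of up to 0.329% of that library's autosomal peaks. The chromosome 13 segment held 1 and 2 peaks, where 6.07 and 7.48 are given, and its flanks held 1 and 1. Log2 density over flanks, with 0.5 added to each count, was 1.19 ± 0.80 in Igf2bp2KO and 0.88 ± 0.37 in WT on chromosome 1 (SD, n = 2 each). The two-sided exact permutation p was 0.667, where the smallest possible is 0.333. On chromosome 13 it was 0.69 ± 0.52 in Igf2bp2KO and 0.73 ± 0.24 in WT (SD, n = 2 each; exact permutation p = 1.00). No difference could be called with 2 libraries against 2. In Igf2bp2KO replicate 1, with 0 peaks in the chromosome 1 segment and its flanks, the value comes from the 0.5 added alone.

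Of the 8 Igf2bp2KO peaks, 2 fell at the strongest WT regions of chromosome 13. The replicate 2 peak inside 2210408I21Rik had 16 fragments, and the replicate 1 peak at chr13:87898171-87898469, with 11 fragments, lay beside the highest WT peak. Prmt6KO held 6 and 5 fragments at the second position, and WT held 7 and 10. The other 6 had 8 to 10 fragments, and 3 of them overlapped no peak of the Prmt6KO and WT lists. None of the 8 passed q 0.05. Fragments of Igf2bp2KO are deposited pileup divided by its step, the smallest unit its values are multiples of.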

How the data were processed

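H3R2me2a ChIP-seq peaks were deposited as 1 list per library, in mm10. MACS2 2.1.0, HISAT2, bedtools, Trim Galore and bcl2fastq 2.17 were used, per the submitters' processing notes, which as given here state no settings. Per the file headers, the authors gave each peak a summit pileup (signal) in fragments, a fold enrichment over the list's background, and −log10 of p and q. Igf2bp2KO pileup had been scaled down by the authors and was divided by its step of 0.277 and 0.302, to within 0.0490 and 0.0821 of a whole fragment. Total reads are not given in the sources used here, so depth is known only from the background and lowest summit of each list.

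Peaks were assigned by start, and densities were divided by the library's own flanks or autosomes, which span 2403 bins of 1 Mb from first to last peak. Log2 values had 0.5 added to each count. Igf2bp2KO was compared with WT by a two-sided exact permutation test. Bins were counted where the 4 libraries averaged at least 10 peaks. Genes and sequences came from RefSeq (GRCm38.p6). Named genes were 5 lists, the 6 longest genes per segment, the 3 highest replicated peaks per genotype and segment, and miRNA genes with a peak within 1 kb. Genes with promoter peaks or gene-end calls were named after their values were seen. Members and lists were chosen with earlier results of these data known. Alternatives covered peak thresholds, flank width, trimmed segments, covered length, bin size, gene window and left-out libraries. Python 3.11.15, numpy 2.4.6, scipy 1.17.1 and pandas 2.3.3 were used, and the bin counts were tested on simulated data.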

Additional observations from a re-analysis of the deposited data

How the results depend on the processing

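Differences are log2 density over flanks. As group means, Prmt6KO minus WT was below 0 under every alternative run: -0.17 to -0.70 on chromosome 1 and -0.38 to -0.89 on chromosome 13, where -0.89 came from peaks that passed q 0.05. This contrast chose the segments, so the constant sign is no finding. At q 0.05 Prmt6KO replicate 2 was above WT replicate 1 on chromosome 1 (0.90 and 0.45) and below it on chromosome 13 (1.26 and 1.37). Leaving out each library gave -0.25 to -1.0 and -0.15 to -0.75. Igf2bp2KO minus WT changed sign on chromosome 1 with summits of at least 6 times the background (-0.11), against autosomes (-2.39) and with 5 Mb flanks (-0.86), and ran from -0.26 to 0.88 with a library left out. On chromosome 13 it changed sign without the outer 1 Mb (0.16) and by covered length (0.47), and ran from -0.41 to 0.32 with a library left out. It was -2.44 against autosomes and -1.10 with summits of at least 6 times the background. In both segments it had no value at fold 4 or q 0.05, since Igf2bp2KO then had no peak in the flanks. Bins of 0.5 Mb gave 846 sparse bins of 4797, and 23 of 58 in the segments. Leaving out a library gave 544 to 940 sparse bins of 2403, and 12 to 29 of 29 in the segments. Without Prmt6KO replicate 1 there were 12, and without Prmt6KO replicate 2 there were 29.

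Of 68 genes, Prmt6KO and WT calls numbered 53 and 28 with 2.5 kb windows, where 62.6% and 13.8% of autosomal genes were called. They numbered 63 and 53 over gene bodies (67.3% and 37.5% of autosomal genes), and 0 and 0 at q 0.05 (0.290% and 0.227%). Genes gained in Prmt6KO then numbered 5, 1 and 0, where 25.7%, 13.4% and 0.0242% of autosomal genes were gained. Leaving out a library gave 30 to 49 Prmt6KO calls (28.6% to 72.2% of autosomal genes) and 11 to 27 WT calls (3.70% to 19.1%). It gave 13 to 18 gained (21.5% to 51.0%) and 0 to 3 lost (0.832% to 2.71%). The cause was not tested.

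With the replicate number as a replicate block the differences were -0.62 and -0.45 for Prmt6KO, and 0.31 and -0.04 for Igf2bp2KO (exact sign-flip p = 0.5 and 1.00, where the smallest possible is 0.5). The numbers were not taken as pairing the samples. Replicate differences over 2403 bins correlated at 0.521 between Prmt6KO and WT and at 0.0755 between Igf2bp2KO and WT, with 2 pairs and no label on shared source. Depth is known only from each list's background and lowest summit, and its part in the differences was not tested.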
